A study of Homo sapiens with 12 samples.

Results

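The genes described here are 37 genes of lipogenesis, triglyceride synthesis and lipid droplets, followed by RNA sequencing through HepG2 cells, an established human hepatocellular carcinoma line, with lowered or raised expression of thiosulfate sulfurtransferase (TST). TST, also called rhodanese, is the main enzyme that detoxifies cyanide by turning it into thiocyanate. The genes were chosen by function, with earlier results of these data known, and were found by matching their symbols to the Ensembl identifiers of the count tables, where they make up 37 of 57500 genes. There were 4 libraries of each of 3 groups. WT was the control labelled as wild type, shTST cells carried a short hairpin RNA against TST, and overTST cells carried a codon-optimized TST coding sequence behind the CMV promoter. Both modified lines had been made with lentivirus produced in HEK293T cells and selected with Blasticidin S as stably transduced populations, and no control line carrying an empty vector is named for these libraries, so effects of transduction and selection cannot be told apart from those of TST. Before RNA was extracted, cells of all groups had spent 24 h in ordinary culture medium, whose glycine was 0.4 mM. The comparisons ask how transcript levels in this pathway differ when TST is silenced or overexpressed. Since RNA was taken from whole cultures, a change in a transcript per cell and a change in the share of cells that carry it cannot be told apart.

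As background, fatty acids are made in the cytosol from citrate, which ATP citrate lyase splits into acetyl-CoA. Acetyl-CoA carboxylase makes malonyl-CoA from it, and fatty acid synthase builds palmitate, which elongases and desaturases then lengthen and desaturate. Glycerol-3-phosphate acyltransferases and then acylglycerol-phosphate acyltransferases attach the first acyl chains to glycerol, lipins remove the phosphate, and diacylglycerol acyltransferases attach the last chain. The triglyceride is stored in droplets coated by perilipins and opened by adipose triglyceride lipase. In hepatocytes, the transcription factors SREBP-1c and ChREBP switch this programme on after feeding.

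The stretches before a listed start of 4 of the genes are shown first, because they bracket the range of responses: AGPAT2 had the largest increase in overTST, LPIN2 the largest decrease, PNPLA2 went opposite ways in the 2 lines, and ACLY opens the pathway. Each is the RefSeq sequence before the gene's most upstream listed start on GRCh38.p14, read 5′ to 3′ on the strand of the gene, and it ends at that start or, where an exon annotated by GENCODE 29 reaches into it, before that exon. Capitals mark 4 motifs searched on both strands: the SREBP element TCACNCCAC, the E-box CACGTG, the NF-Y box CCAAT and the GC box GGGCGG.
AGPAT2: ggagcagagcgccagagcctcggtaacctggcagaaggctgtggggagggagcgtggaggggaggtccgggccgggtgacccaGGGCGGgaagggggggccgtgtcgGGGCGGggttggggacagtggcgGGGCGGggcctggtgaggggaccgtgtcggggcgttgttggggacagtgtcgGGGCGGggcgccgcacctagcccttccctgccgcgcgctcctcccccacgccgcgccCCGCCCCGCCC
LPIN2: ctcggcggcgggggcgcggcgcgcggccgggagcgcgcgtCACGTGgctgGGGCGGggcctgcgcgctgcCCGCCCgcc
ACLY: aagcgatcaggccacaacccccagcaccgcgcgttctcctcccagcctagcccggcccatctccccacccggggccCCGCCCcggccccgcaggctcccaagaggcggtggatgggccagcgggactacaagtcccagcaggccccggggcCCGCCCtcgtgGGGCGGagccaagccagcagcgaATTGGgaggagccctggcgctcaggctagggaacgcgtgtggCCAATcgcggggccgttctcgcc
PNPLA2: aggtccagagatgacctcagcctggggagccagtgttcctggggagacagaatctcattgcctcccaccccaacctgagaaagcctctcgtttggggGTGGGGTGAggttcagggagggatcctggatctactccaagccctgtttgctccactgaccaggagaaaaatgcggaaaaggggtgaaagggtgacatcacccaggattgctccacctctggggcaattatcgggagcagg
By the deposited tables on GRCh38, AGPAT2 is ENSG00000169692 at chr9:136673143-136687423 on the minus strand, LPIN2 is ENSG00000101577 at chr18:2916994-3013315 on the minus strand, ACLY is ENSG00000131473 at chr17:41866908-41930542 on the minus strand and PNPLA2 is ENSG00000177666 at chr11:818902-825573 on the plus strand. The AGPAT2 stretch is chr9:136687458-136687707 on the minus strand and holds 6 GC boxes. That of LPIN2, chr18:3013316-3013394 on the minus strand, holds an E-box 210 bases before the start and 2 GC boxes in its 79 bases. ACLY, at chr17:41919023-41919272 on the minus strand, has 2 NF-Y boxes at 65 and 23 bases before the start and 3 GC boxes. The ACLY stretch holds no annotated exon but lies inside the gene as deposited: 1 transcript of GENCODE 29 has a further exon upstream, at chr17:41930358-41930542, so this stretch is intronic for that transcript. The other 3 lie outside their genes. In PNPLA2, at chr11:818664-818901 on the plus strand, the SREBP element lies 153 bases before the start on the opposite strand. RefSeq windows were at hand for 31 of the 37 genes, in 50 windows; FASN, GPAT4, LPIN3, DGAT1, DGAT2 and PNPLA3 had no entry. In the 250 bases before the start, the GC box was in 74% of these windows against 42.6% of all 35116 windows of the table, the NF-Y box in 40% against 32%, the E-box in 8% against 6.34% and the SREBP element in 4% against 0.883%. A match to these letters is a description of the sequence and not a binding site shown by these data.

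Total counts ranged from 28866175 to 45120508 per library in WT, from 27527854 to 33865386 in shTST and from 22911380 to 27414142 in overTST. The 37 genes took 0.74% to 0.769% of all counts in WT, 0.71% to 0.775% in shTST and 0.642% to 0.674% in overTST. Mitochondrially encoded transcripts took 6.91% to 12% of counts in WT, 6.84% to 8.65% in shTST and 10.8% to 11.7% in overTST, and the shTST replicate 2 library had counts on 24354 genes where the others had 21107 to 22906. Their part in the results was not tested. All 10 hepatocyte markers examined were present in every library, with ALB at 123937 to 267845 counts and TTR, the lowest, at 2152 or more. Their levels were not constant. In shTST 4 were higher and 3 lower (70% against 16.1% of all genes tested), with log2 fold changes from −0.33 to 0.49. In overTST 2 were higher and 2 lower (40% against 33.9%), from −0.55 to 0.24. After a correction for gene length, described further on, APOA1, TTR and HNF4A were no longer called there (adjusted p = 0.454, 0.636 and 0.368, edgeR). APOB stayed lower, TF passed upwards, and FGB and AHSG passed downwards. Between the lines 6 were higher and 1 lower in shTST (70% against 33.0%). Of these calls, TF was lost in 11 of 18 alternative settings and ALB in 6. In shTST against WT, APOB and AHSG were each lost in 7. Of 4 immune markers, PTPRC and CD3E had at most 1 count, CD68 27 to 72 and CD79A 17 to 57. Of 4 fibroblast markers, COL3A1, DCN and PDGFRA had at most 5 counts and COL1A1 19 to 70. Of 3 endothelial markers, VWF had at most 9 counts, CDH5 1 to 33 and PECAM1 42 to 109. Of the markers of other cell types, 5 were tested, and in overTST PECAM1 was higher (log2 fold change 0.61, adjusted p = 0.00278) and CDH5 lower (−1.31, adjusted p = 0.0129, edgeR, lost without WT replicate 2 or overTST replicate 3 at adjusted p of 0.0565 and 0.0642); none was called in shTST. The part of these markers in the results was not tested.

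TST itself was measured first, as a check of the labels. In CPM, the read counts divided by the normalized size of the library, TST was at 47.2, 47.5, 52.8 and 48.5 in WT, 32.99, 33.6, 36.5 and 33.5 in shTST and 51.8, 56.04, 61.6 and 62.1 in overTST. All shTST libraries were below all WT libraries (edgeR log2 fold change −0.52, SE 0.055, adjusted p = 3.2e-06), while overTST overlapped WT by 1 library and was higher on average (log2 fold change 0.24, SE 0.062, adjusted p = 0.00384). That increase was lost with a correction for gene length, described further on, where the log2 fold change was 0.096 (adjusted p = 0.201) and, with the replicate block added, 0.094 (adjusted p = 0.159). Whether reads of the codon-optimized transgene were counted with TST is not given in the sources used here.

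With TST silenced, 9 of the 35 genes that passed the filter on low counts changed, 2 upwards and 7 downwards (edgeR quasi-likelihood test, Benjamini-Hochberg adjusted p of 0.05 or less over all genes). This is 25.7% of the genes examined against 16.1% of all 14584 genes tested; for increases it is 5.71% against 6.69% and for decreases 20% against 9.40%. With TST overexpressed, 14 changed, 2 upwards and 12 downwards, which is 40% against 33.9% of all 14421 genes tested, with 5.71% against 15.7% upwards and 34.3% against 18.2% downwards. The groups of libraries did not overlap for 1 gene above and 9 below WT in shTST (2.86% and 25.7% of the genes against 8.37% and 10.8% of all) and for 2 above and 10 below in overTST (5.71% and 28.6% against 14.2% and 16.2%). Without shTST replicate 1 the counts in shTST were 1 and 4, with 1513 genes called over all, and without shTST replicate 3 they were 1 and 7. Without overTST replicate 1 the counts in overTST were 5 and 11, and without WT replicate 1 or 4 or overTST replicate 2, 3 or 4 the upward count was 1. With upper-quartile normalization 52.7% of all calls in shTST were upwards in place of 41.6%, and the lipid genes still gave 2 and 7.

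Gene length moved with the overTST result. Over all genes tested, Spearman's rho between log2 fold change and exonic length was −0.404 in overTST and −0.09 in shTST, given as a description across genes, which are not independent. After a correction for gene length, the split in overTST was 8 upwards and 12 downwards in place of 2 and 12, which is 57.1% of the genes against 28.4% of all genes tested after the same correction, with 22.9% against 14.2% upwards and 34.3% against 14.2% downwards. In shTST the split was 2 and 8, or 28.6% against 17.7%, with 5.71% against 7.84% upwards and 22.9% against 9.83% downwards. The median log2 fold change of the 35 genes was −0.067 in shTST and −0.058 in overTST, and that of all genes tested 0.004 and 0.002. CIDEB and THRSP were not tested, CIDEB with at most 8 and THRSP with at most 3 counts per library. Of the CIDEB exonic bases, 100% overlap NOP9 or LTB4R2 on the opposite strand. Its reads may therefore have been shared or left uncounted.

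**Figure D1:**
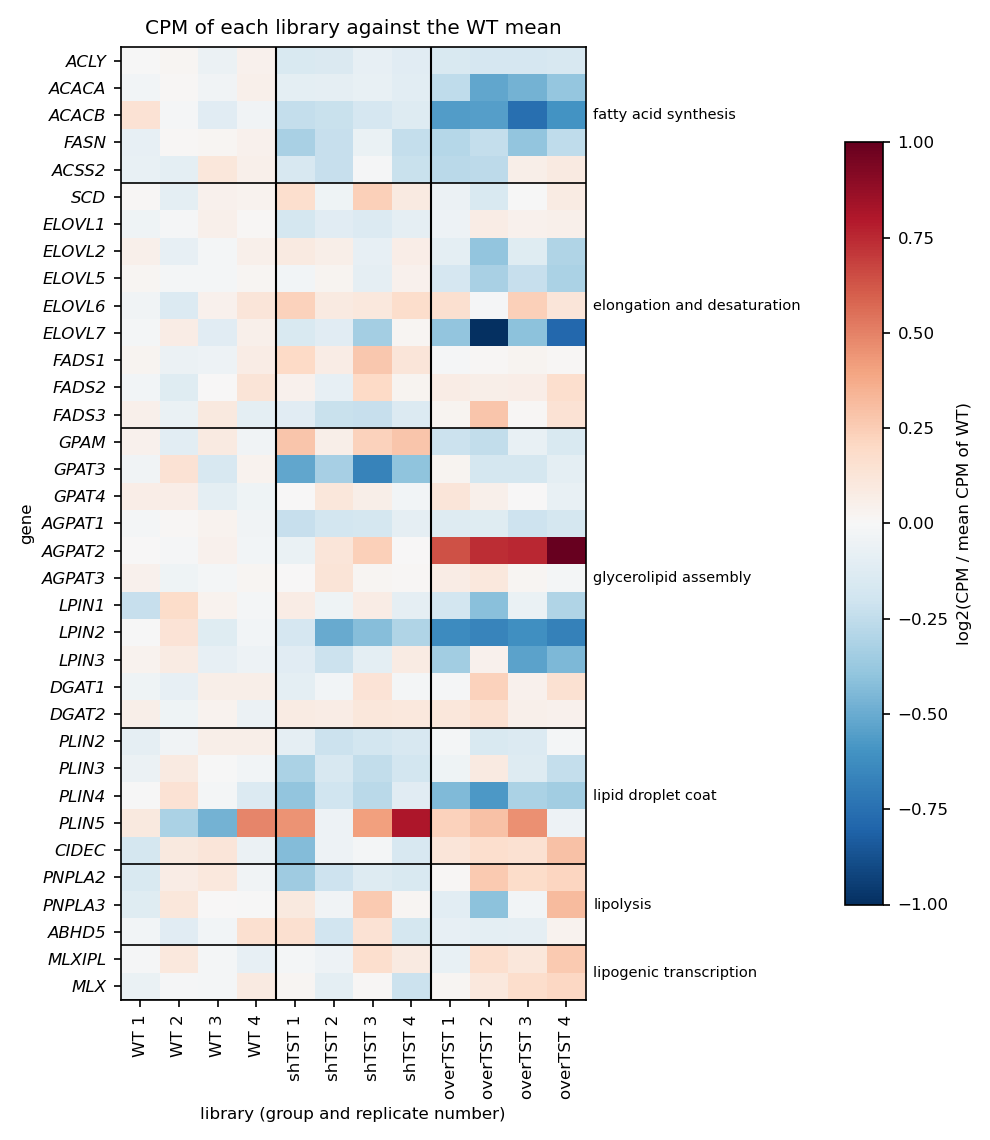
Heat map of log2(CPM / mean CPM of WT) for the 35 genes tested, in rows by role, and the 12 libraries in columns; blue is below and red above the WT mean, and the colour scale ends at −1 and 1. Genes of fatty acid synthesis are mostly blue in overTST, LPIN2 is blue in both modified lines, and AGPAT2 is strongly red in all 4 overTST libraries.

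The levels of the genes in WT spanned a wide range. Per kilobase of exonic length, SCD, the stearoyl-CoA desaturase that makes oleate, was highest at 317 ± 14.2 CPM per kb (SD, n = 4), followed by FASN at 281 ± 10.4 and ACLY at 122 ± 3.46. SCD and FASN together held 50% of the summed CPM per kb of all 37 genes. The gap between these 2 exceeded the SD of either, and further down the order PLIN3 was at 63.4 ± 2.88, DGAT1 at 41.1 ± 2.03 and PNPLA2 at 35.6 ± 2.79 CPM per kb. ELOVL5, ELOVL2, ELOVL1 and AGPAT1 lay between 30.3 and 32.6 CPM per kb, and neighbours in this order differed by less than the larger SD of the pair. ELOVL5 at 32.6 ± 0.54 and AGPAT1 at 30.3 ± 0.662 were further apart than the SD of either. In all, 33 genes reached 1 CPM per kb in WT. The coefficient of variation among WT libraries had a median of 5.43% over the tested genes and ranged from 1.66% to 30.9%, the highest in PLIN5.

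The 5 genes of fatty acid synthesis all had lower mean levels in both lines, 1 of 5 past the threshold in shTST and 4 of 5 in overTST. These are 20% and 80% of the 5, against 9.40% and 18.2% of all genes tested that were lower. For ACLY, which makes cytosolic acetyl-CoA from citrate, CPM were 632.5, 643, 610.1 and 652 in WT, 571, 575, 599 and 588 in shTST and 571, 565, 565 and 567 in overTST. Both modified lines lay below every WT library. The decrease in overTST passed the threshold (log2 fold change −0.16, SE 0.047, adjusted p = 0.00925) and that in shTST did not (log2 fold change −0.12, SE 0.043, adjusted p = 0.0559), though it passed in 6 of 18 alternatives, DESeq2 (adjusted p = 0.0136) and limma-voom (adjusted p = 0.0297) among them. FASN, fatty acid synthase (ENSG00000169710 at chr17:82078333-82098332 on the minus strand), had 2488, 2642, 2666 and 2712 CPM in WT, 2103, 2243, 2508 and 2226 in shTST and 2151, 2227, 1994 and 2209 in overTST. Its overTST libraries were all below WT, and in shTST 1 library, replicate 3, reached into the WT range. FASN fell in both lines, in overTST with log2 fold change −0.29, SE 0.055, adjusted p = 0.000255 and in shTST with log2 fold change −0.21, SE 0.056, adjusted p = 0.0128. The shTST call was lost without shTST replicate 1 (adjusted p = 0.0778) or replicate 4 (adjusted p = 0.0535) and ranged from 7.6e-05 to 0.0778 across the alternatives.

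ACACA (ENSG00000278540 at chr17:37084988-37406818 on the minus strand), the cytosolic acetyl-CoA carboxylase that commits acetyl-CoA to synthesis, had 138, 142, 137 and 145 CPM in WT, 131, 132, 133 and 131 in shTST and 118, 97.98, 101 and 107 in overTST. The 3 groups did not overlap, with WT highest and overTST lowest. The decrease in overTST passed the threshold (log2 fold change −0.41, SE 0.055, adjusted p = 6.5e-06), and the value in shTST did not (log2 fold change −0.09, SE 0.04, adjusted p = 0.129). Its relative ACACB, whose product at the mitochondrial membrane restrains fatty acid oxidation, had 21.9, 19.6, 18.3 and 19.3 CPM in WT, 16.8, 16.9, 17.6 and 18.1 in shTST and 13.4, 13.5, 11.7 and 13.1 in overTST. The order of the groups was the same, again without overlap. In overTST ACACB had log2 fold change −0.61, SE 0.08, adjusted p = 3.7e-06, and in shTST log2 fold change −0.19, SE 0.068, adjusted p = 0.0632. These have the longest exonic lengths of the set, 13008 bases for ACACA and 14505 for ACACB, and the length correction brought their overTST values to −0.23 and −0.42, that of FASN to −0.16 and that of ACLY to −0.12, all still past the threshold. ACSS2, which makes acetyl-CoA from acetate, was within 103.6 to 135 CPM in all libraries and passed in neither line; in shTST it passed in 6 of 18 alternatives, with a lowest adjusted p of 0.00921 with the replicate block.

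Among the 9 elongases and desaturases, 1 rose in shTST and 3 fell in overTST. These are 11.1% against 6.69% of all genes tested upwards in shTST, and 33.3% against 18.2% downwards in overTST. SCD, at 1712, 1592, 1757 and 1746 CPM in WT, 1915, 1656, 2002 and 1809 in shTST and 1632, 1528, 1701 and 1806 in overTST, overlapped in all groups. Its log2 fold change was 0.12 in shTST (95% interval 0.01 to 0.23, adjusted p = 0.167) and −0.03 in overTST (95% interval −0.14 to 0.08, adjusted p = 0.729, edgeR). The gene with the highest level per length thus passed in neither line.

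The elongases of polyunsaturated chains, ELOVL2 and ELOVL5, fell in overTST. ELOVL2 had 131, 119, 125 and 131 CPM in WT, 134, 132, 119.5 and 132 in shTST and 118, 95.99, 116 and 103 in overTST. ELOVL5 had 126, 122.5, 122 and 126 CPM in WT, 122, 127, 117 and 128 in shTST and 111, 99.2, 106 and 99.7 in overTST. For both, WT and shTST shared a range and all overTST libraries were below it. The changes in overTST were log2 fold change −0.22, SE 0.061, adjusted p = 0.00622 for ELOVL2, and log2 fold change −0.26, SE 0.05, adjusted p = 0.000337 for ELOVL5. ELOVL7, an elongase of long saturated and monounsaturated chains, had 8.03, 8.54, 7.54 and 8.43 CPM in WT, 7.34, 7.54, 6.43 and 8.23 in shTST and 6.2, 4.02, 6.12 and 4.73 in overTST. The overTST libraries were again lowest, with replicates 2 and 4 below replicates 1 and 3. Its value in overTST was log2 fold change −0.62, SE 0.12, adjusted p = 0.000338. In shTST the log2 fold changes of these 3 elongases were 0.04, −0.01 and −0.14, and none passed; for all 3 the direct difference between shTST and overTST did pass, as described further on.

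FADS1, the delta-5 desaturase that completes arachidonate, was the only gene of this role to rise in shTST. It had 251, 236, 238 and 259.8 CPM in WT, 283, 259, 297 and 268 in shTST and 244.5, 248, 251 and 248 in overTST. Its shTST range touched WT at 1 library, and overTST lay within the WT range. In shTST the change was log2 fold change 0.17, SE 0.048, adjusted p = 0.018, lost without shTST replicate 1 (adjusted p = 0.054) or replicate 3 (adjusted p = 0.0676); its adjusted p ran from 0.0014 to 0.0676 across the alternatives. FADS1 shares 490 exonic bases with the neighbouring FADS2 on the other strand, and the use of strand in counting is not given in the sources used here. ELOVL1, ELOVL6, FADS2 and FADS3 passed against WT in neither line, with log2 fold changes between −0.17 and 0.15.

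The 11 genes of glycerolipid assembly held the largest changes in both directions among genes past the threshold in overTST, with 1 rise and 3 falls in shTST, and 1 rise and 4 falls in overTST. These are 36.4% and 45.5% of the 11, against 16.1% and 33.9% of all genes tested. The first acylation is shared by 3 enzymes, and 2 of them changed in shTST, in opposite directions. GPAM (ENSG00000119927 at chr10:112149864-112215377 on the minus strand), the mitochondrial glycerol-3-phosphate acyltransferase, had 53.1, 47.8, 54.9 and 50.3 CPM in WT, 62.3, 53.5, 60.4 and 62.6 in shTST and 44.4, 43.5, 48.9 and 46.2 in overTST. The shTST and overTST libraries did not overlap, and WT lay between them and overlapped both. GPAM rose in shTST (log2 fold change 0.22, SE 0.057, adjusted p = 0.0125) and fell in overTST (log2 fold change −0.17, SE 0.06, adjusted p = 0.0306). The fall in overTST was lost in 9 of 18 alternatives: upper-quartile normalization, leaving out any of 3 WT libraries (replicates 1, 3 and 4) or of 3 overTST libraries (replicates 1, 2 and 4), with adjusted p between 0.0512 and 0.099, and both length corrections, where the value was −0.03 (adjusted p = 0.789 and 0.733); the lowest adjusted p of all alternatives was 0.0106. The rise in shTST stayed past the threshold in all 18.

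GPAT3 (ENSG00000138678 at chr4:83535914-83605875 on the plus strand), an endoplasmic reticulum enzyme of the same step, had 10.4, 11.7, 9.51 and 10.9 CPM in WT, 7.41, 8.47, 6.7 and 8.06 in shTST and 10.9, 9.4, 9.4 and 9.96 in overTST. Every shTST library was below every other library. GPAT3 fell in shTST (log2 fold change −0.48, SE 0.093, adjusted p = 0.00135), the largest decrease of the set in that line, and its value in overTST was −0.11 (adjusted p = 0.399). GPAT4, the other gene of this step among the 37, was between 63.4 and 74.1 CPM throughout and passed in neither line.

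Among the enzymes of the second acylation, AGPAT2, mutated in a form of congenital generalized lipodystrophy, had 6.21, 6.15, 6.38 and 6.1 CPM in WT, 5.94, 6.77, 7.33 and 6.24 in shTST and 9.67, 10.4, 10.5 and 12.6 in overTST. The overTST libraries stood clear of the rest, while WT lay inside the shTST range. It rose in overTST with log2 fold change 0.79, SE 0.099, adjusted p = 2.1e-06, the largest change of the set in that line, and with the length correction its value was 0.64. AGPAT2 is among the shortest of the genes, at 1798 bases, and all genes tested of up to 2 kb had a median log2 fold change of 0.19 in overTST. AGPAT1, which had 111, 113, 115 and 109.7 CPM in WT, 95.5, 98.7, 99.2 and 105 in shTST and 102, 103, 97.2 and 99.1 in overTST, went the other way, from a WT level of 30.3 CPM per kb against 3.46 for AGPAT2. Both modified lines were below WT without overlap. It fell in shTST with log2 fold change −0.17, SE 0.043, adjusted p = 0.00969 and in overTST with log2 fold change −0.16, SE 0.048, adjusted p = 0.0117. The first call was lost without shTST replicate 1 (adjusted p = 0.0527, range 0.00257 to 0.0527) and the second without overTST replicate 3 (adjusted p = 0.0526, range 0.00211 to 0.0526). Of the AGPAT1 exons, 29.3% overlap PPT2-EGFL8 or EGFL8 on the opposite strand, so reads from these genes may be shared.

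LPIN2, one of the lipins that dephosphorylate phosphatidate to diacylglycerol, had 58.3, 64.1, 53.6 and 57.4 CPM in WT, 52.03, 41.1, 43.5 and 47.5 in shTST and 37.7, 36.9, 38.2 and 36.5 in overTST. No library of any group reached into another group, and WT was highest and overTST lowest. It fell in both lines, by more in overTST (log2 fold change −0.65, SE 0.06, adjusted p = 4.1e-08) than in shTST (log2 fold change −0.35, SE 0.066, adjusted p = 0.00115), and both calls held in all 18 alternatives. LPIN3 was lower in overTST with log2 fold change −0.31, SE 0.11, adjusted p = 0.0285, but replicate 2 there had 10.25 CPM, within the WT range of 9.41 to 10.6, and 13.5% of its exons overlap EMILIN3. The LPIN3 call was lost without WT replicate 1 or 2 or overTST replicate 3 or 4, with adjusted p from 0.0636 to 0.124 (across all alternatives from 0.00243 to 0.124). LPIN1 passed in neither line (0.001 in shTST, and −0.24 with an adjusted p of 0.0739 in overTST).

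The diacylglycerol acyltransferases, which attach the last acyl chain, passed the threshold in neither line. DGAT1 had 167, 163, 179.5 and 179 CPM in WT, 160.5, 169, 189.7 and 169.8 in shTST and 170.4, 201.5, 177 and 192 in overTST. DGAT2 had 103, 95.9, 101.5 and 95.2 CPM in WT, 105, 104, 107 and 106 in shTST and 107, 110.2, 102 and 102 in overTST. The groups of DGAT1 overlapped, whereas the shTST libraries of DGAT2 were all slightly above WT. The 95% intervals of the log2 fold change were −0.10 to 0.10 for DGAT1 and 0.01 to 0.18 for DGAT2 in shTST, and −0.002 to 0.21 and −0.01 to 0.19 in overTST.

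**Figure D2:**
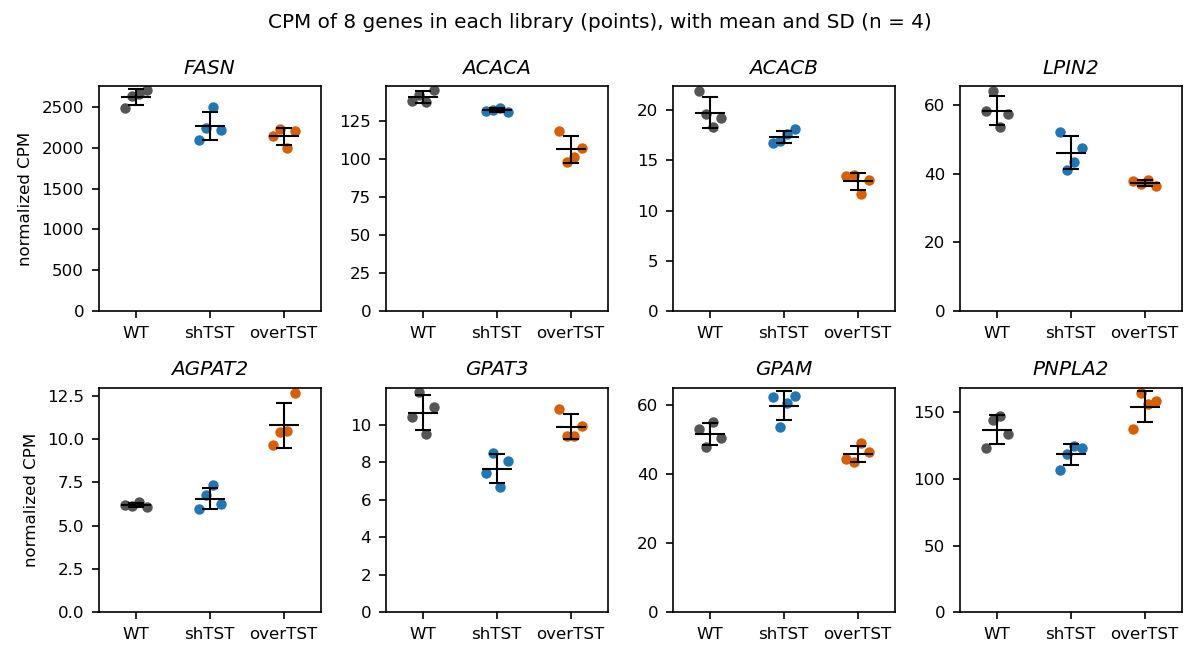
Normalized CPM of FASN, ACACA, ACACB, LPIN2, AGPAT2, GPAT3, GPAM and PNPLA2, 1 point per library, with the mean and SD of each group (n = 4), on axes that start at 0. FASN, ACACA, ACACB and LPIN2 are lowest in overTST, AGPAT2 is highest there, GPAT3 is lowest in shTST, and GPAM and PNPLA2 move apart in opposite directions.

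Of the lipid droplet coat genes, 2 of 5 tested fell in shTST and 1 of 5 in overTST. These are 40% and 20%, against 9.40% and 18.2% of all genes tested. PLIN2, the perilipin that coats most droplets in hepatocytes, had 135.5, 141, 150.5 and 151 CPM in WT, 136, 125, 127 and 129.6 in shTST and 142, 129.9, 131 and 142 in overTST. In shTST only replicate 1 reached the WT range, and overTST overlapped both. PLIN2 fell in shTST with log2 fold change −0.16, SE 0.046, adjusted p = 0.0199, a call lost without any of 5 libraries (WT replicate 3 or 4, or shTST replicate 2, 3 or 4, with adjusted p from 0.0506 to 0.0887, and across all alternatives from 0.00909 to 0.0887). In overTST its value was −0.08 (adjusted p = 0.234). PLIN3, a perilipin that also circulates in the cytosol, had 171, 189.6, 177.5 and 175 CPM in WT, 143, 159.9, 149.9 and 157 in shTST and 173, 189.7, 163 and 151.5 in overTST. All shTST libraries were below WT, and overTST spanned both. It fell in shTST with log2 fold change −0.23, SE 0.046, adjusted p = 0.00215, a call that held in all 18 alternatives, and 17.8% of its exonic bases overlap an antisense gene. PLIN4 had 9.16, 10.2, 9.1 and 8.37 CPM in WT, 7.01, 8.04, 7.65 and 8.5 in shTST and 6.79, 6.18, 7.38 and 7.23 in overTST. It was lowest in overTST, below every WT library, where it fell with log2 fold change −0.42, SE 0.099, adjusted p = 0.00193, and in shTST its value was log2 fold change −0.24, SE 0.091, adjusted p = 0.0704. PLIN5, at 0.849 to 2.06 CPM, and CIDEC passed against WT in neither line.

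In lipolysis, PNPLA2, the adipose triglyceride lipase that takes the first acyl chain off triglyceride, had 123, 144, 147 and 133 CPM in WT, 107, 118, 125 and 123 in shTST and 138, 164, 156 and 159 in overTST. The shTST and overTST libraries did not overlap, and WT reached into both. PNPLA2 fell in shTST (log2 fold change −0.21, SE 0.056, adjusted p = 0.0127) and rose in overTST (log2 fold change 0.17, SE 0.059, adjusted p = 0.028). Without shTST replicate 1 the first was lost (adjusted p = 0.0745, range 0.000274 to 0.0745), and without WT replicate 1 or 4 or overTST replicate 2, 3 or 4 the second (adjusted p from 0.0672 to 0.131, range 0.00272 to 0.131). Its exons overlap an antisense gene over 10.4% of their length. PNPLA3, a lipase of the same family linked to fatty liver, had 14.4, 17.1, 15.8 and 15.7 CPM in WT, 16.8, 15.3, 18.8 and 16 in shTST and 14.6, 11.8, 15.4 and 19.6 in overTST. These values overlapped throughout and were most scattered in overTST. Neither change passed (0.09, adjusted p = 0.47 in shTST; −0.04, adjusted p = 0.804 in overTST; edgeR). ABHD5, the coactivator of PNPLA2, was at 4.12 to 5.28 CPM in all libraries with log2 fold changes of 0 and −0.06.

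The 2 transcription factors tested among the 37 genes, MLXIPL and MLX, passed in neither line; SREBF1, which encodes SREBP-1c, is not among the 37 and is described with the other regulators. MLXIPL, which encodes ChREBP, had 77.7, 84.2, 77.2 and 74.04 CPM in WT, 77.1, 75.5, 87.7 and 83.1 in shTST and 74.3, 87.8, 84.5 and 93.6 in overTST. The groups overlapped, and the 95% intervals of the log2 fold change were −0.06 to 0.15 in shTST and −0.002 to 0.24 in overTST. MLX, its partner on DNA, had −0.07 in shTST and 0.13 in overTST on the log2 scale (adjusted p = 0.463 and 0.0842, edgeR). Of its exonic bases, 18.1% overlap PSMC3IP on the opposite strand, so reads may be shared here too.

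**Figure D3:**
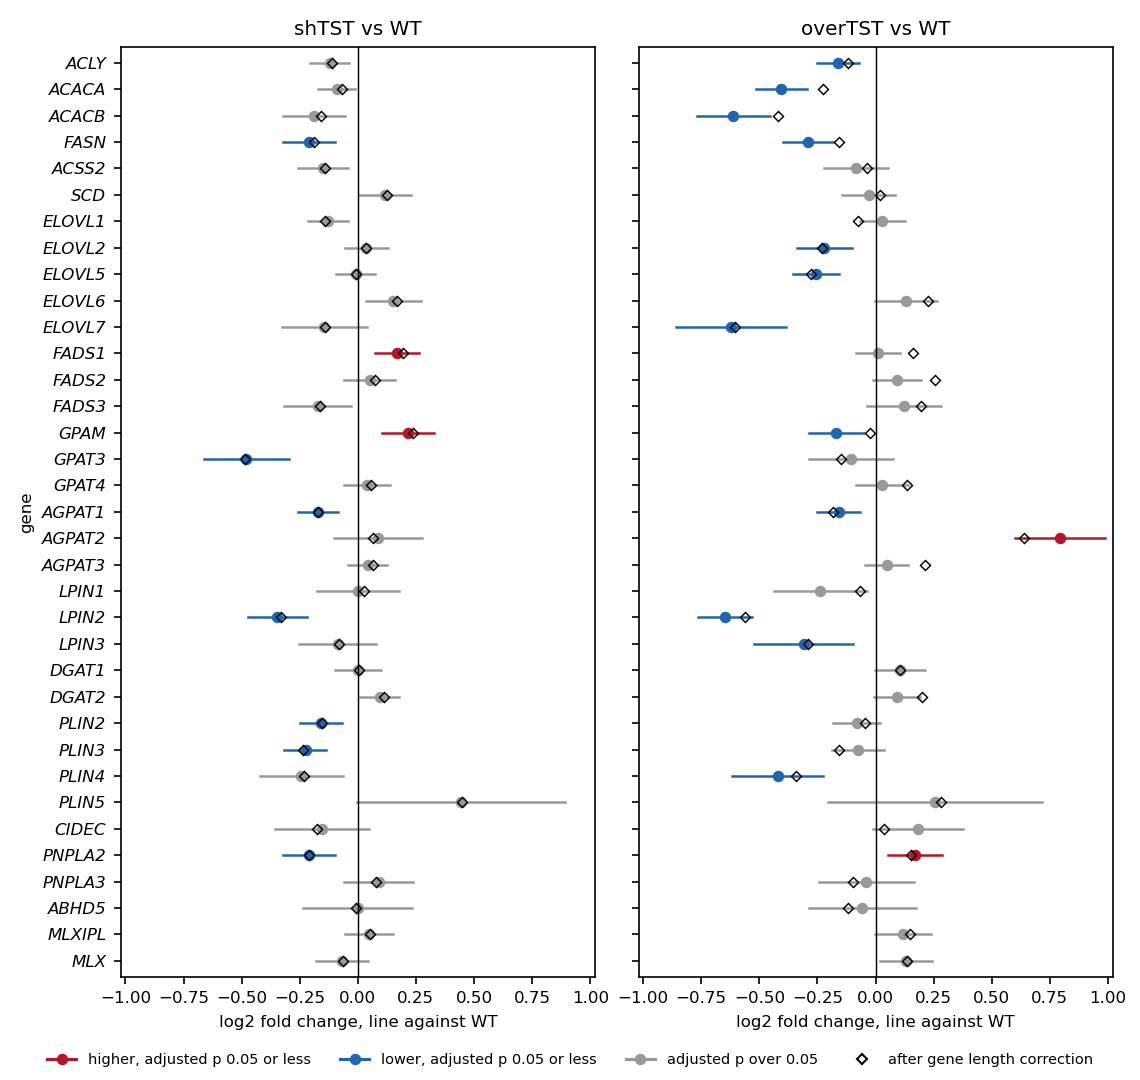
Log2 fold change against WT of the 35 genes in shTST (left) and overTST (right), with 95% intervals as lines; red and blue circles passed an adjusted p of 0.05 upwards and downwards, grey ones did not, and open diamonds give the value after the gene length correction. Blue circles outnumber red ones in both panels, and the diamonds of ACACA, ACACB, FASN and GPAM in overTST lie to the right of their circles.

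The 2 modified lines were then compared directly, in a fit of all 12 libraries. Of the 35 genes, 16 differed, 8 higher and 8 lower in shTST than in overTST, which is 45.7% against 33.0% of all 14883 genes tested, with 22.9% against 16.9% higher and 22.9% against 16.1% lower. Of these, 8 and 7 had groups of libraries that did not overlap, 22.9% and 20% of the genes against 14.5% and 14.7% of all genes tested. ACACA, ACACB, ELOVL2, ELOVL5, ELOVL7, FADS1, GPAM and LPIN2 were higher in shTST. The differences were 0.31 for ACACA, 0.42 for ACACB, 0.48 for ELOVL7, 0.38 for GPAM and 0.30 for LPIN2. With the length correction those of ACACA and ACACB were 0.15 and 0.26, still past the threshold. For ELOVL2 and ELOVL5 they were 0.26 and 0.25, and for FADS1 0.16, with adjusted p of 0.00133, 0.000246 and 0.0101 (edgeR). ELOVL1, FADS3, GPAT3, AGPAT2, PLIN3, CIDEC, PNPLA2 and MLX were lower in shTST. AGPAT2 had the largest difference at −0.71 (SE 0.097), ahead of PNPLA2 at −0.38 and GPAT3 at −0.37. CIDEC and FADS3, which passed against WT in neither line, had −0.34 and −0.29 here, and ELOVL1 and MLX had −0.16 and −0.20.

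The comparisons with WT share the WT libraries, so their values are set side by side only. FASN, AGPAT1 and LPIN2 were lower in both lines. Of these, LPIN2 differed between the lines (adjusted p = 0.000973), and for FASN and AGPAT1 the intervals of the direct difference were −0.03 to 0.19 and −0.10 to 0.08 on the log2 scale. GPAM and PNPLA2 passed in opposite directions in the 2 lines, and for both the direct difference passed as well (adjusted p = 3.1e-05 and 4.2e-05, edgeR). In 13 genes no comparison passed: ACSS2, SCD, ELOVL6, FADS2, GPAT4, AGPAT3, LPIN1, DGAT1, DGAT2, PLIN5, PNPLA3, ABHD5 and MLXIPL. Of these, PLIN5 and ABHD5 passed in no alternative, and each of the others passed in at least 1. SCD passed in the direct comparison in 7 of 18, with DESeq2 (adjusted p = 0.042), limma-voom (adjusted p = 0.0349) and the replicate block (adjusted p = 0.0158) among them.

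Some of these direct differences depended on 1 library or on the length correction. The call of PLIN3 (log2 fold change −0.15, SE 0.056, adjusted p = 0.0414) was lost without any of shTST replicates 1, 3 and 4 or overTST replicates 1 and 2 (adjusted p from 0.0537 to 0.231, and across all alternatives from 0.00935 to 0.313). That of FADS1 was lost without shTST replicate 3 (adjusted p = 0.0519, alternatives 0.00283 to 0.716), that of CIDEC without shTST replicate 1 (adjusted p = 0.0623, alternatives 0.0066 to 0.124) and that of MLX without shTST replicate 4 (adjusted p = 0.0646, alternatives 0.00319 to 0.0646). With the length correction, ELOVL1, FADS1, PLIN3 and CIDEC no longer passed, at adjusted p of 0.254, 0.716, 0.313 and 0.124, and FADS2 (−0.18, adjusted p = 0.025) and AGPAT3 (−0.15, adjusted p = 0.0131) passed in addition, so that 14 genes did, 40% against 27.7% of all genes tested after the same correction. Of these, 7 were higher and 7 lower in shTST, 20% each against 12.6% and 15.1%. With no filter on low counts, ELOVL1 and PLIN3 did not pass (adjusted p = 0.0854 and 0.0676).

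Among all genes tested of over 8 kb, the median log2 fold change in overTST was −0.155 and 41.6% were lower, and of the 8 lipid genes of that length 4 were lower, which is 50%. At 4 to 8 kb the shares lower were 22.2% of all genes and 31.2% of the 16 lipid genes, and at 2 to 4 kb 6.97% of all genes and 33.3% of the 9 lipid genes. In shTST the median of all genes over 8 kb was −0.02. After the correction 13 of the 14 calls in overTST remained, without GPAM, and ELOVL6, FADS1, FADS2, GPAT4, AGPAT3, DGAT2 and PLIN3 passed in addition, of which PLIN3 was lower (−0.16) and the others higher (0.14 to 0.25). In shTST all 9 calls remained and ELOVL1 was added (−0.14). The source of the length trend was not tested.

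Around the 37 genes, 59 others of the same pathways were counted, of which 49 were tested. In shTST 2 of the 49 were higher and 9 lower, in overTST 8 higher and 12 lower, and between the lines 10 were higher in shTST and 11 lower. These are 22.4%, 40.8% and 42.9% of the 49, against 16.1%, 33.9% and 33.0% of all genes tested. The acyl-CoA synthetases and fatty acid transport proteins, which activate fatty acids for the acylations above, were all among the genes tested. Of these 8, 1 was higher and 4 lower in shTST (62.5%), and 4 were lower in overTST (50%). SLC27A4 fell in shTST with log2 fold change −0.32, SE 0.047, adjusted p = 0.000116, ACSL3, which is found at growing lipid droplets, with log2 fold change −0.31, SE 0.052, adjusted p = 0.000425, and in overTST ACSL4, which prefers arachidonate, fell with log2 fold change −0.49, SE 0.058, adjusted p = 9.6e-07 and ACSL3 with log2 fold change −0.39, SE 0.057, adjusted p = 1.2e-05. ACSL1, which supplies acyl-CoA for both synthesis and oxidation in liver, had the smallest p of the list in the direct comparison (log2 fold change 0.59, SE 0.063, adjusted p = 2.9e-07).

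Of 12 transcriptional regulators tested, 1 was higher and 2 lower in shTST, and 3 were higher and 4 lower in overTST. This is 25% and 58.3%, against 16.1% and 33.9% of all genes tested. The 1 that was higher in shTST was SREBF1, named here after its values were seen because it encodes the SREBP-1c of the background. Counts per gene do not tell SREBP-1c apart from any other product of the gene. SREBF1 rose in shTST (log2 fold change 0.21, SE 0.055, adjusted p = 0.0124), a call lost without shTST replicate 3 (adjusted p = 0.052), and in overTST (log2 fold change 0.18, SE 0.051, adjusted p = 0.00697), where it passed in all 18 alternatives. SCAP, the escort that carries SREBP to the Golgi for cleavage, fell in shTST (log2 fold change −0.32, SE 0.047, adjusted p = 9.6e-05) and in overTST (log2 fold change −0.28, SE 0.049, adjusted p = 0.000132), and NR1H3, the liver X receptor alpha, fell in shTST (log2 fold change −0.23, SE 0.056, adjusted p = 0.00673). PPARA, the receptor that switches on fatty acid oxidation, fell in overTST (log2 fold change −0.43, SE 0.065, adjusted p = 2.2e-05), with −0.24 after the length correction (adjusted p = 0.00389). SLC25A1, the mitochondrial citrate carrier that brings citrate to the cytosol, had log2 fold change 0.15, SE 0.058, adjusted p = 0.0444 in overTST, a call lost in 9 of 18 alternatives: no filter, the length correction (0.018, adjusted p = 0.819) with and without the replicate block, and without WT replicate 1, 2 or 4 or overTST replicate 2, 3 or 4, with adjusted p from 0.00487 to 0.819 across all of them.

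The 6 genes tested of the list of elongation partners, other elongases and other desaturases had log2 fold changes between −0.035 and 0.14 in shTST. In overTST 2 of them rose and 1 fell (50%), with TECR, the reductase that closes each elongation cycle, at log2 fold change 0.22, SE 0.05, adjusted p = 0.00131. Among 8 other enzymes of glycerolipid synthesis, 1 passed in each line (12.5%): GK, the glycerol kinase, fell in shTST (log2 fold change −0.23, SE 0.047, adjusted p = 0.00245) and AGPAT5 in overTST (log2 fold change −0.19, SE 0.057, adjusted p = 0.0135). Of 9 other droplet and lipolysis genes, 2 fell in shTST (22.2%), and 1 rose and 2 fell in overTST (33.3%). Over all genes tested, 16.1% passed in shTST and 33.9% in overTST. FITM2, which partitions triglyceride into budding droplets, fell in both (log2 fold change −0.14, SE 0.044, adjusted p = 0.0357 in shTST and log2 fold change −0.36, SE 0.057, adjusted p = 3.3e-05 in overTST). The call in shTST was lost in 10 of 18 alternatives, without WT replicate 1, 2 or 4 or any of the shTST libraries among them, with adjusted p up to 0.117, and that in overTST held in all 18.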

How the data were processed

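RNA from 12 HepG2 libraries, 4 each of WT, shTST and overTST, was sequenced. What the authors deposited are raw read counts, whole numbers per Ensembl gene and library. The submitters' processing notes list Trimmomatic 0.36, STAR 2.5.2b, featureCounts of Subread 1.5.2 and GRCh38; the use of strand, the annotation release and the counting settings are not given in the sources used here. Groups and replicate numbers come from the sample labels, and the series describes independent replicates.

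Gene identifiers were matched to symbols, which 56410 of 57500 had. Counts were filtered with edgeR's filterByExpr, scaled by TMM and entered into edgeR's quasi-likelihood test, with Benjamini-Hochberg adjustment over all genes tested and a threshold of 0.05. Each comparison with WT used its own 8 libraries, and the direct one a fit of all 12. SE is the absolute log2 fold change over the square root of F, and a prior count of 2 was used for log2 values. CPM printed per library use TMM factors over all 12 libraries. Exonic lengths are those deposited. Total counts of 22911380 to 45120508 per library set the counting error. All 18 pairs of libraries within groups differed by more than sampling noise (chi-square per gene 3.69 to 38.4), so none was treated as a copy. Procedures were tested on simulated counts.

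The alternatives were DESeq2, limma-voom, RLE and upper-quartile normalization, no filter, more than 1 CPM in 4 libraries, another choice of libraries in the fit, a gene length correction (lowess, span 0.3), the replicate number as a block with and without it, and leaving out each library. Values in every library are given for the genes past the threshold in order of p, at most 10 per comparison, and always for ACLY, ACACA, FASN, SCD, DGAT1, DGAT2, PLIN2, PNPLA2, PNPLA3 and MLXIPL; the other genes are given by range and counts. Of each list of other pathway genes, at most 2 per comparison are named, those with the smallest p; SREBF1 was added after its values were seen. The genes, lists and tests were chosen with earlier results of these data known. Software was R 4.3.3, edgeR 4.0.16, limma 3.58.1, DESeq2 1.42.0, Python 3.11.15, pandas 2.3.3 and matplotlib 3.10.9. Promoter sequences are RefSeq's, on GRCh38.p14. The result of 1 gene among the lists of other pathway genes is not reported here.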

Additional observations from a re-analysis of the deposited data

Results flagged for a closer look

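Among the 108 combinations of gene and group examined for TST and the tested genes, 4 held a library whose gap to the nearest of the other 3 exceeded Dixon's 95% critical share of the range of the group; chance flags about 1 in 20 such groups, and 4 is 3.7% of them. TST in shTST replicate 3 was at 36.55 CPM, while the other shTST libraries were at 32.99 to 33.57. FADS2 in overTST replicate 4 was at 241.8 CPM against 223.4 to 226.1. AGPAT3 in shTST replicate 2, the library with counts on the most genes, was at 146.5 CPM against 134.4 to 135.6. ABHD5 in overTST replicate 4 was at 4.819 CPM against 4.405 to 4.441. FADS2, AGPAT3 and ABHD5 passed the threshold in none of the comparisons, although FADS2 and AGPAT3 did in overTST and in the direct comparison after the gene length correction.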

How the results depend on the processing

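In each comparison, log2 fold changes were recomputed for TST, the genes past the threshold in order of p, at most 10, and the genes always given. Of these 972 values, 910 kept their direction and their side of the threshold, 18 lost and 24 gained the call. Another 20 changed sign, with values between −0.09 and 0.066 and adjusted p of 0.127 or more. Calls of larger p are outside these counts, such as that of GPAM in overTST, lost in 9 of 18 alternatives. In all 18 alternatives, 4 of the 9 calls in shTST (GPAM, GPAT3, LPIN2, PLIN3), 10 of the 14 in overTST and 11 of the 16 in the direct comparison held. The gene length correction gave 8 genes higher in overTST, and changed the sign of SCD in overTST (0.018) and of DGAT2 (−0.09) and FASN (−0.036) in the direct comparison. With no filter DGAT1 in shTST was −0.009, and in the direct comparison DGAT2 was −0.007 with upper-quartile normalization and 0 with the filter of more than 1 CPM. Leaving out each library gave 1513 to 2336 genes called in shTST, with 1 to 3 lipid genes higher and 4 to 9 lower; 3979 to 5263 genes in overTST, with 1 to 5 higher and 10 to 11 lower; and 3986 to 5265 in the direct comparison, with 7 to 10 higher and 6 to 8 lower. It gave log2 fold changes of −0.046 to 0.041 for DGAT1 in shTST, −0.071 to 0.011 for SCD and −0.173 to 0.066 for PNPLA3 in overTST, and −0.014 to 0.024 for DGAT2 between the lines. The causes were not tested, the smaller number of libraries included. At 22911380 counts or more per library, CIDEB and THRSP still had too few counts to be tested. Whether this came from depth, low expression or, for CIDEB, the overlap of its exons was not tested.

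Replicate numbers are shared by the groups, but same-numbered libraries did not deviate together: their correlations were −0.0527 to 0.0801 in 12 pairs, and in 5 of 12 checks a library correlated best with its own number, so the numbers were not taken as pairs. With the replicate block 2980 genes were called in shTST (3 lipid genes higher, 10 lower), 5166 in overTST (2 and 12) and 5232 in the direct comparison (9 and 8), and DGAT1 in shTST was at 0. The block with the gene length correction gave 5 lipid genes higher in shTST and 10 in overTST, with SCD at 0.017 in overTST and DGAT2 at −0.09 and FASN at −0.039 in the direct comparison.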
